A study of Mus musculus with 22 samples.

Results

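The genes described here are 43 members of the Wnt signaling family, taken by gene symbol from the 41388 genes in the deposited tables: 17 Wnt ligands, 12 receptors and co-receptors (Fzd1 to Fzd10, Lrp5 and Lrp6), 9 secreted antagonists (Sfrp1, Sfrp2, Sfrp4, Sfrp5, Frzb, Dkk1, Dkk2, Dkk3 and Wif1), 3 R-spondins (Rspo1, Rspo2 and Rspo3), and Axin2 and Lgr5. They were measured by RNAseq in 22 libraries of cells sorted from the stroma of mammary tumors grown in C57BL/6 mice, labelled with an age of postnatal day 56. Cells were sorted by TdTomato (TdT) and by CD45, the common leukocyte antigen, into TdT+ CD45-, TdT+ CD45+, TdT- CD45+ and TdT- CD45- populations. The 11 wild type libraries came from Osx-cre;Ai9 mice and the other 11 from Cdh2-cKO;Ai9 mice, whose label names a conditional Cdh2 knockout, with 2 libraries of TdT+ CD45- cells and 3 of each other population for each genotype.

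In these mice a tetracycline-repressible Cre under the promoter of Sp7, which encodes osterix (Osx), switches on the Ai9 TdTomato reporter, so that TdT marks a cell whose lineage expressed the transgene and not one that expresses Osx when it is sorted. All mice carried Osx-cre and the reporter, controls included, and in the Cdh2-cKO only cells of the Osx-cre lineage, the TdT+ ones, are meant to lose Cdh2. The labels name the tumor as an orthotopic MMTV-BO1 tumor, whereas the methods of the study name a subcutaneous GFP-labeled PyMT-BO1 line and the sorting away of GFP+ tumor cells. Per the labels, 4 wild type and 6 Cdh2-cKO mice were inoculated, and the cell preparations kept were those that passed a check of RNA integrity. The labels call the libraries biological replicates, without saying which of them came from the same mouse.

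Wnt ligands are lipid-modified secreted proteins that bind Frizzled receptors, alone or together with the co-receptors Lrp5 and Lrp6, and either stabilize β-catenin or act through β-catenin-independent routes on cell shape and polarity. Secreted Frizzled-related proteins (Sfrp, Frzb) and Wif1 bind the ligands themselves, Dickkopf proteins such as Dkk1 and Dkk2 bind the co-receptors, and R-spondins raise the amount of receptor at the surface through Lgr receptors. Axin2 is a β-catenin target that feeds back on the pathway, and Lgr5 is both a target and an R-spondin receptor. Fibroblasts are a well-known source of Wnt5a, Wnt2 and Sfrp proteins in connective tissue.

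The windows from 250 bases before to 50 bases after the transcription start of a ligand, a receptor, an antagonist and a target are shown, because these genes stand for the roles whose levels are described next. The windows are from RefSeq on GRCm38.p6, read 5′ to 3′ on the strand of the gene, at chr6:18030396-18030695 (minus strand) for Wnt2, chr5:4758167-4758466 (minus strand) for Fzd1, chr3:83766071-83766370 (plus strand) for Sfrp2 and chr11:108920099-108920398 (plus strand) for Axin2. Capitals mark matches on either strand to CTTTGA, the core letters bound by TCF/LEF factors, and to TATAAA, the letters of the TATA motif.
Wnt2: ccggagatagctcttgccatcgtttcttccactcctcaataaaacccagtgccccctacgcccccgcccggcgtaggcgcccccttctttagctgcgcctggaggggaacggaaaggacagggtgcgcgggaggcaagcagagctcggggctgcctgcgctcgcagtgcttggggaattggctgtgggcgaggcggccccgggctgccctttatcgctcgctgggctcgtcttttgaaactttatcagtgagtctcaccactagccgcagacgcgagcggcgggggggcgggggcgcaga
Fzd1: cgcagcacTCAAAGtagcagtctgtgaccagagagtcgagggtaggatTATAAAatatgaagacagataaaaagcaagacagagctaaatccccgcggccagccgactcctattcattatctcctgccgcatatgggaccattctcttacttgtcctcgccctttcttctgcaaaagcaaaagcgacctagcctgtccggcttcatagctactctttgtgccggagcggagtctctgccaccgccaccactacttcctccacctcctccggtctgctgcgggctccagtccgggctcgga
Sfrp2: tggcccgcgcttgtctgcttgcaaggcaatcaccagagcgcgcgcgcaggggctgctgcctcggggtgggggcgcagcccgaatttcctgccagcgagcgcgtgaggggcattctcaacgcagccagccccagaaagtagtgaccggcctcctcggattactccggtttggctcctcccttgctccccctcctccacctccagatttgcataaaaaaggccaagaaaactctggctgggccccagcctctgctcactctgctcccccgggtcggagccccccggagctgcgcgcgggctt
Axin2: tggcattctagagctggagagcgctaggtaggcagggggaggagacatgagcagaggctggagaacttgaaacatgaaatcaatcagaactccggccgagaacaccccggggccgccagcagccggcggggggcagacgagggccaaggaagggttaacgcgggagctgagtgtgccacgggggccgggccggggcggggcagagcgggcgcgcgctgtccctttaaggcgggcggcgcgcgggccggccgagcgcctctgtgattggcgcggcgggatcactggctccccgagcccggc

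Of these windows only that of Fzd1 held the letters: CTTTGA on the opposite strand (printed as TCAAAG) from position 9 of the window and TATAAA from position 49, 2 motifs that do not overlap. Position 49 is far upstream of where a TATA box lies relative to a start, and the RefSeq start of Fzd1 is itself upstream of the counted gene model, which ends at 4758035. A RefSeq window was matched for 28 of the 43 members. CTTTGA was found in 5 of the 28 (Dkk1, Frzb, Fzd1, Wnt11 and Wnt5b) and in 16% of all 32851 windows, and TATAAA in 5 of the 28 (Dkk1, Dkk2, Fzd1, Wif1 and Wnt11) and in 13.6% of all windows. The windows of Axin2, Wnt2, Sfrp2 and Fzd1 held 31, 27, 22 and 16 CpG dinucleotides, where the median of all windows was 7.

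Library totals ran from 16594228 to 26784003 counts. Levels are given as CPM, each library's counts rescaled to a common total after scaling each library with edgeR's TMM factor, and the smallest signal taken as present, 3 counts, corresponds to between 0.103 and 0.201 CPM, which covers counting error only. Ptprc, the gene of CD45, was at 2.45 to 337 CPM in the 10 CD45- libraries and 472 to 1821 CPM in the 12 CD45+ libraries. The summed level of 5 leukocyte genes (Ptprc, Coro1a, Laptm5, Cd52 and Cd53) ranged from 169.8 to 5163 CPM in the CD45- and from 8843 to 11380 CPM in the CD45+ libraries, and wild type TdT- CD45- replicate 3 and Cdh2-cKO-labelled TdT+ CD45- replicate 1 were the CD45- libraries with the highest sums (5163 and 3543 CPM). In the other direction, 6 fibroblast genes (Col1a1, Col1a2, Col3a1, Dcn, Lum and Pdgfra) summed to between 4223 and 58910 CPM in the CD45- and to between 59.9 and 213 CPM in the CD45+ libraries. Among 5 osteoblast genes, Sp7 had 2 counts over the CD45- and 1 over the CD45+ libraries and Bglap 2 and 4, while Ibsp had 653 and 14, Alpl 156 and 19, and Runx2 was at 14.2 to 52.4 CPM and 8.57 to 33.9 CPM. The 5 summed to between 14.8 and 53.8 CPM in the CD45- and between 8.79 and 34.7 CPM in the CD45+ libraries. Wild type TdT- CD45+ replicate 2 stood apart by its lymphocyte genes, with B cell genes summing to 3450 CPM where no other library exceeded 21.6.

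Cdh2, which encodes N-cadherin and is the gene the conditional knockout targets, was at 9.13 and 5.19 CPM in wild type TdT+, 17.2 and 13.1 in Cdh2-cKO-labelled TdT+, 6.02, 7.47 and 4.51 in wild type TdT- and 12.5, 18.4 and 14.2 in Cdh2-cKO-labelled TdT- libraries, all of them CD45-. In both CD45- populations every library labelled Cdh2-cKO was above every wild type library, as in 21.5% (TdT+) and 3.89% (TdT-) of all genes tested. In TdT+ cells, the ones meant to lose the gene, this goes against the label, and for TdT- cells the label makes no such demand. The log2 fold change was 1.08 in TdT+ CD45- (edgeR adjusted p = 0.668) and 1.32 in TdT- CD45- cells (edgeR adjusted p = 0.623), so the difference did not pass the test. The counts are per gene, and which part of Cdh2 the knockout removes was not examined. These libraries are therefore called Cdh2-cKO-labelled throughout, and each direction between the genotypes below rests on that label.

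Of the 43 members, 29 passed the filter of more than 1 CPM in at least 2 libraries and were tested. The 14 that did not pass were the ligands Wnt1, Wnt3, Wnt3a, Wnt6, Wnt7a, Wnt9b, Wnt10a and Wnt16, the receptors Fzd9 and Fzd10, the antagonists Sfrp5 and Dkk1, and the R-spondins Rspo1 and Rspo2. None of the 14 had more than 18 counts in a library, and Wnt7a had 0 in every library. Wnt3a, a ligand used to activate β-catenin in culture, had 3 counts over all 22 libraries, and Dkk1, the classical inhibitor of Lrp5 and Lrp6, likewise had 3. Wnt6 stood out among them by where its counts lay, with 59 of 62 in the CD45+ libraries. The members tested were thus 9 ligands, 10 receptors, 7 antagonists, 1 R-spondin (Rspo3) and Axin2 and Lgr5.

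**Figure D1:**
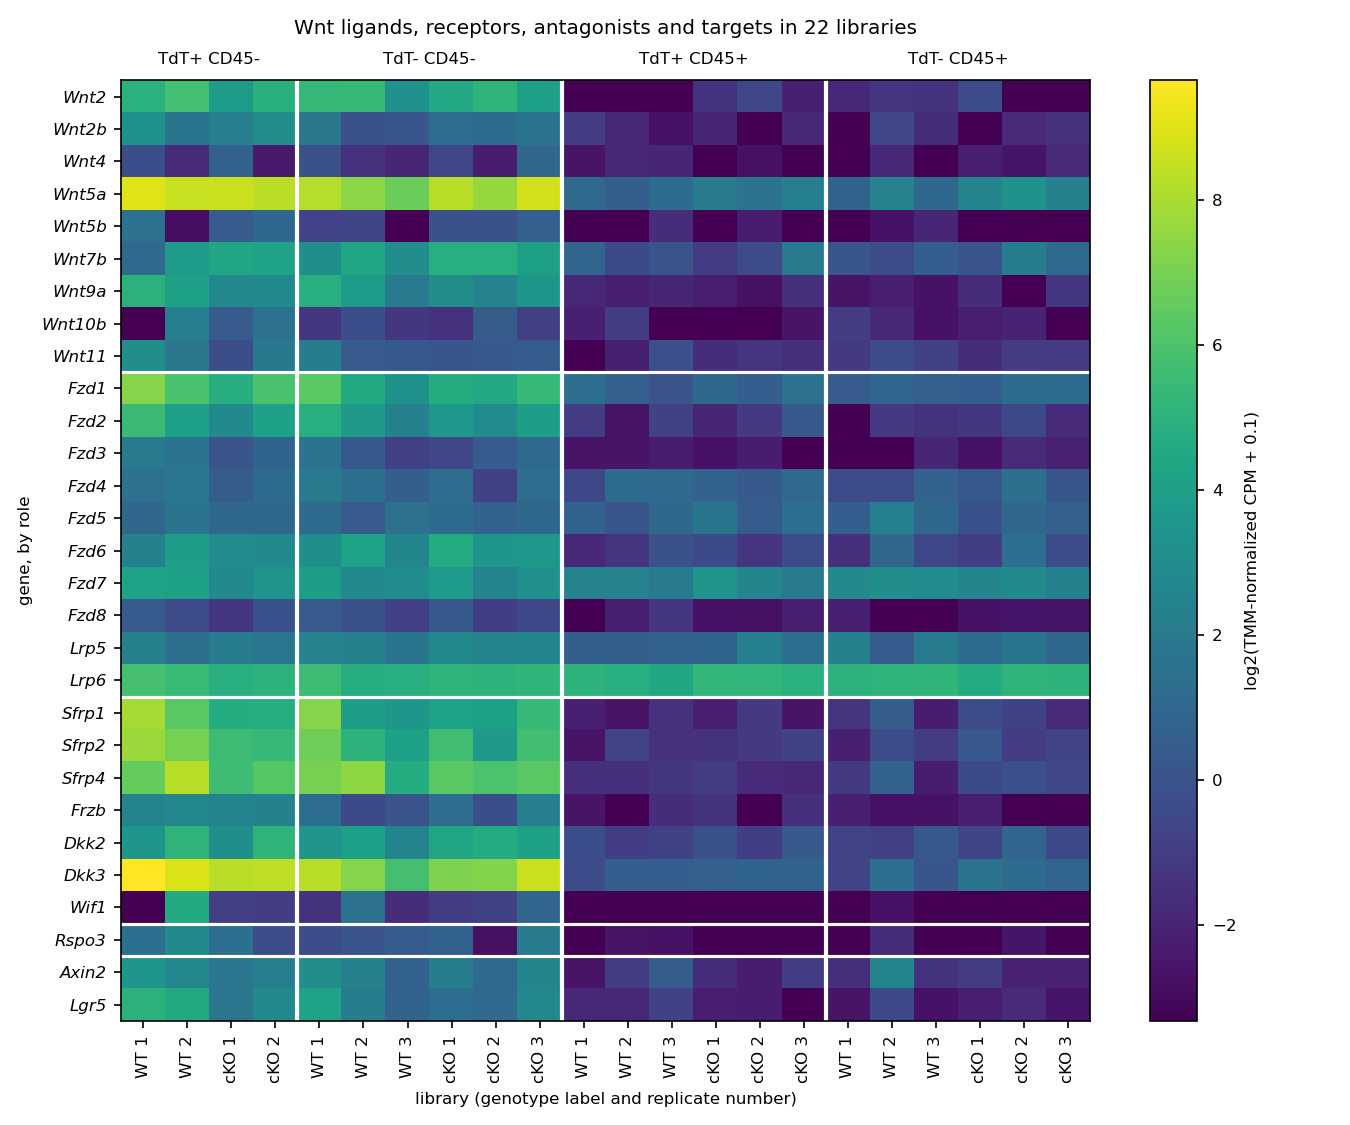
Heat map of the 29 tested genes (rows, by role: ligands, receptors, antagonists, R-spondin, targets) in the 22 libraries (columns, by sorted population, genotype label and replicate number), coloured by log2 of the TMM-normalized CPM plus 0.1. The 10 CD45- columns on the left are brighter than the 12 CD45+ columns for most rows, while the Lrp6 row has nearly one colour throughout, with no value above 57.1 CPM.

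The first comparison asks in which of the sorted compartments the Wnt genes are expressed. The mean of the CD45- populations was higher than the mean of the CD45+ populations for 26 of the 29 tested members and lower for 0 (edgeR's quasi-likelihood test, adjusted p of at most 0.05), where 63.7% of all 15018 genes tested passed, 31.1% as higher and 32.6% as lower. The median log2 fold change was 4.61 over the members tested and -0.06 over all genes. For 4 members (Wnt2, Wnt5b, Wif1 and Rspo3) a group was at 0 counts and the fitted value depends on the prior count, and the median was 4.18 with these set to the ratio of the gates' mean levels, a CD45+ mean under 3 counts per library being raised to 3 counts. The 26 were all 9 ligands tested, 7 of 10 receptors, all 7 antagonists, Rspo3, Axin2 and Lgr5, and the 3 others were Fzd4, Fzd5 and Lrp6. In 15 members every CD45- library lay above every CD45+ library, as in 11% of all genes tested, and in 0 members was it the reverse, as in 3.71% of all genes. A gene at a low level in one compartment could pass the filter only through the other, so these counts describe the members that passed. In such bulk libraries fewer cells of a type and less RNA per cell cannot be told apart.

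**Figure D2:**
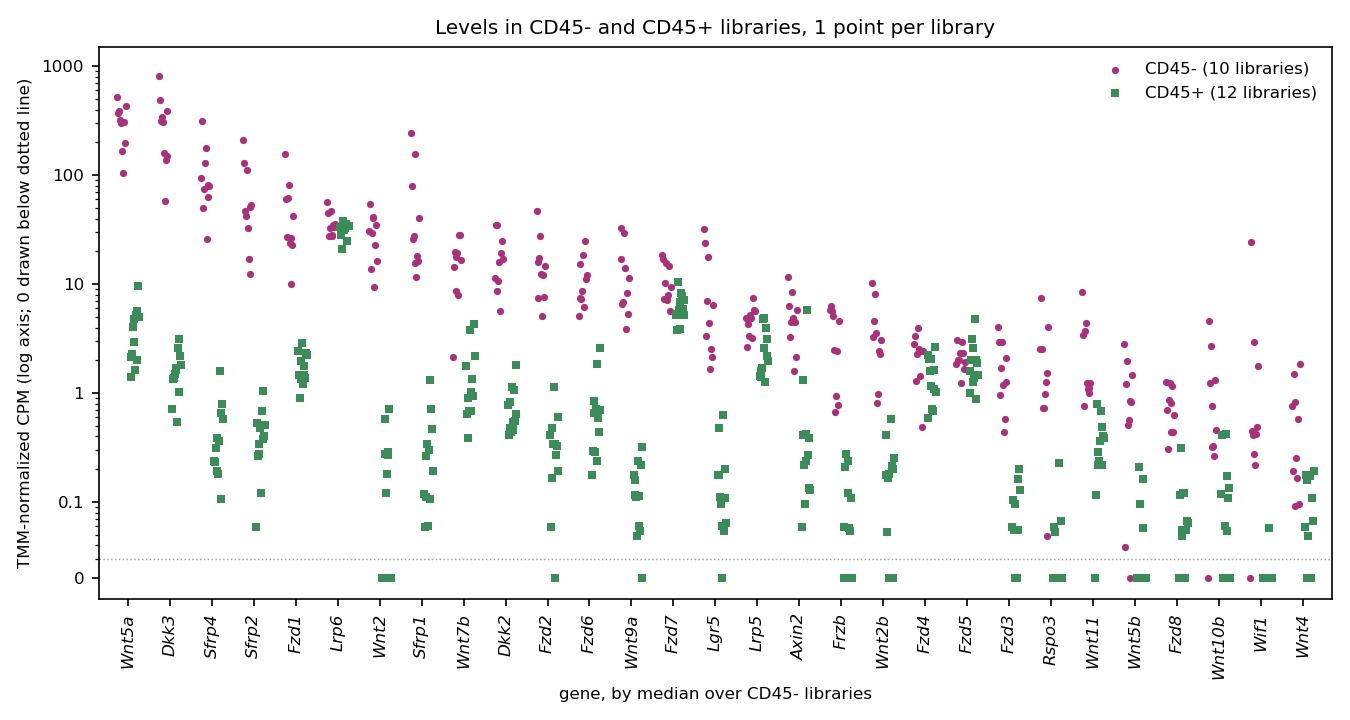
Level of each tested gene in TMM-normalized CPM (log axis, with 0 drawn below the dotted line) in the 10 CD45- libraries (circles) and the 12 CD45+ libraries (squares), 1 point per library, ordered by the median over the CD45- libraries. The point clouds of Wnt5a, Dkk3, Sfrp4, Sfrp2, Fzd1, Wnt2 and Sfrp1 are separate, while those of Lrp6, Fzd7, Fzd4 and Fzd5 overlap.

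Wnt5a, a ligand that acts mostly without β-catenin, was the ligand with the highest median level per kilobase of exon in CD45- cells, at 526 and 374 CPM in wild type TdT+, 391.5 and 320.4 in Cdh2-cKO-labelled TdT+, 299, 166 and 105 in wild type TdT- and 307, 196 and 432 in Cdh2-cKO-labelled TdT- libraries, all CD45-. Its lowest, median and highest values over the 12 CD45+ libraries were 1.4, 3.52 and 9.7 CPM, so the lowest CD45- library was 10.9 times above the highest CD45+ one (log2 fold change 6.47, SE 0.28, adjusted p = 3.82e-11, edgeR). Wnt5a lies at chr14:28504750-28527448 (GRCm38), and 4.58% of its exonic bases are shared with another annotated gene, where ambiguous reads were not counted. Wnt2, a ligand that signals through β-catenin, was at 30.9 and 54.4 CPM in wild type TdT+, 13.7 and 29.7 in Cdh2-cKO-labelled TdT+, 40.5, 41.4 and 9.42 in wild type TdT- and 22.7, 35.1 and 16.2 in Cdh2-cKO-labelled TdT- libraries, all CD45-. Over the CD45+ libraries it was at 0, 0.15 and 0.714 CPM (lowest, median and highest), with 45 counts against 6464 in the CD45- libraries and 0 counts in the 3 wild type TdT+ CD45+ libraries, so that its fitted fold change depends on the prior count (edgeR adjusted p = 6.65e-09). The ratio of the means over libraries was 145, and the lowest CD45- library was 13.2 times above the highest CD45+ library. Wnt9a, known for its part in joint formation, was at 32.7 and 16.9 CPM in wild type TdT+, 6.58 and 6.93 in Cdh2-cKO-labelled TdT+, 29.3, 14.1 and 3.85 in wild type TdT- and 8.36, 5.28 and 11.4 in Cdh2-cKO-labelled TdT- libraries, all CD45-. Its CD45+ libraries reached 0, 0.116 and 0.32 CPM (lowest, median and highest) and did not overlap with the CD45- ones (log2 fold change 6.496, SE 0.41, edgeR adjusted p = 7.15e-10).

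Wnt7b, a ligand known from epithelia, had another order among the CD45- libraries, at 2.14 and 14.2 CPM in wild type TdT+, 19.8 and 17.6 in Cdh2-cKO-labelled TdT+, 8.73, 19.4 and 7.99 in wild type TdT- and 28.4, 28.5 and 16.8 in Cdh2-cKO-labelled TdT- libraries. The CD45+ values were 0.386, 0.978 and 4.28 CPM (lowest, median and highest), and the groups overlapped only through wild type TdT+ CD45- replicate 1, the lowest CD45- library at 2.14 CPM (log2 fold change 3.32, SE 0.41, adjusted p = 2.49e-06, edgeR). Wnt2b, a close relative of Wnt2, was at 10.2 and 3.25 CPM in wild type TdT+, 4.56 and 8.2 in Cdh2-cKO-labelled TdT+, 3.54, 0.819 and 0.991 in wild type TdT- and 2.42, 2.28 and 3.08 in Cdh2-cKO-labelled TdT- libraries, all CD45-, against 0, 0.178 and 0.573 CPM (lowest, median and highest) in CD45+ libraries, with no overlap (log2 fold change 4.38, SE 0.55, adjusted p = 2.61e-06, edgeR). Wnt11, a ligand of cell movement and polarity, was at 8.52 and 3.45 CPM in wild type TdT+, 0.754 and 3.69 in Cdh2-cKO-labelled TdT+, 4.37, 1.23 and 1.1 in wild type TdT- and 0.999, 1.11 and 1.25 in Cdh2-cKO-labelled TdT- libraries, all CD45-. Its CD45+ libraries were at 0, 0.326 and 0.792 CPM (lowest, median and highest) and overlapped with the lowest CD45- library only (log2 fold change 2.80, SE 0.45, adjusted p = 4.25e-05, edgeR), and 364 of its 3633 exonic bases are shared with another gene.
The remaining ligands were low. Wnt4 ranged over 0.0911 to 1.83 CPM in CD45- and 0 to 0.192 CPM in CD45+ libraries, with at least 3 counts in 8 of 10 and 4 of 12 libraries. Wnt5b ranged over 0 to 2.81 CPM and 0 to 0.211 CPM (at least 3 counts in 8 and 2 libraries), and Wnt10b over 0 to 4.61 CPM and 0 to 0.421 CPM (9 and 3 libraries). All 3 were higher in CD45- cells (edgeR adjusted p = 7.51e-04, 2.25e-04 and 5.20e-04). The call of Wnt10b was lost in 1 of 30 alternatives, the one without wild type TdT+ CD45- replicate 2, its highest library. That fit left the group with 1 library, at 0 counts.

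Among the receptors, the Frizzleds Fzd1, Fzd2, Fzd3 and Fzd6 were separate between the gates, and Fzd4, Fzd5, Fzd7, Fzd8, Lrp5 and Lrp6 overlapped. Fzd1 was at 156 and 60.5 CPM in wild type TdT+, 27.1 and 61.2 in Cdh2-cKO-labelled TdT+, 81.6, 23.6 and 10.02 in wild type TdT- and 26.3, 22.7 and 41.9 in Cdh2-cKO-labelled TdT- libraries, all CD45-, and at 0.897, 1.62 and 2.89 CPM (lowest, median and highest) in CD45+ libraries (log2 fold change 4.78, SE 0.35, adjusted p = 3.81e-09, edgeR). Fzd2 was at 46.5 and 15.9 CPM in wild type TdT+, 7.4 and 17.3 in Cdh2-cKO-labelled TdT+, 27.6, 12.4 and 5.07 in wild type TdT- and 12, 7.56 and 14.8 in Cdh2-cKO-labelled TdT- libraries, all CD45-, and at 0, 0.335 and 1.14 CPM in CD45+ libraries (log2 fold change 5.54, SE 0.46, adjusted p = 1.96e-08, edgeR). Both were highest in wild type TdT+ CD45- replicate 1 and lowest, among CD45- libraries, in wild type TdT- CD45- replicate 3. Fzd6, a Frizzled of planar cell polarity, was instead lowest in wild type TdT+ CD45- replicate 1, at 5.1 and 15.2 CPM in wild type TdT+, 7.54 and 7.29 in Cdh2-cKO-labelled TdT+, 8.69, 18.5 and 6.17 in wild type TdT- and 25.1, 11.2 and 12.1 in Cdh2-cKO-labelled TdT- libraries, against 0.178, 0.627 and 2.61 CPM in CD45+ libraries (log2 fold change 3.89, SE 0.41, adjusted p = 4.03e-07, edgeR). Fzd3 ranged over 0.441 to 4.03 CPM in CD45- and 0 to 0.201 CPM in CD45+ libraries, with at least 3 counts in 10 of 10 and 2 of 12 (4.46 on the log2 scale, edgeR adjusted p = 7.16e-07), and Fzd8 over 0.308 to 1.28 CPM and 0 to 0.317 CPM, with at least 3 counts in 10 of 10 and 1 of 12 (3.31, edgeR adjusted p = 2.25e-05).

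Lrp6, Lrp5 and Fzd7 were expressed on both sides of the gate, together with the low receptors Fzd4 and Fzd5. Lrp6 was at 57.1 and 44.8 CPM in wild type TdT+, 27.7 and 33 in Cdh2-cKO-labelled TdT+, 47.3, 27.4 and 28.2 in wild type TdT- and 34.7, 33.5 and 35.6 in Cdh2-cKO-labelled TdT- libraries, all CD45-, and at 21, 33.8 and 38 CPM (lowest, median and highest) in CD45+ libraries, and the difference did not pass the test (log2 fold change 0.20, SE 0.12, adjusted p = 0.136, edgeR), although DESeq2 called it (adjusted p = 0.0496). Lrp5, its close relative, was at 4.9 and 2.63 CPM in wild type TdT+, 4.35 and 3.33 in Cdh2-cKO-labelled TdT+, 5.24, 4.86 and 3.19 in wild type TdT- and 7.42, 5.77 and 5.71 in Cdh2-cKO-labelled TdT- libraries, all CD45-, and at 1.26, 2.09 and 4.87 CPM in CD45+ libraries. It passed the test with overlapping libraries (log2 fold change 0.86, SE 0.24, adjusted p = 0.00399, edgeR), but not in the 11 wild type libraries alone (adjusted p = 0.0941). Fzd7, a Frizzled found in many progenitor cells, was at 18.6 and 17.1 CPM in wild type TdT+, 7.27 and 10.2 in Cdh2-cKO-labelled TdT+, 15.5, 7.21 and 7.87 in wild type TdT- and 14.6, 5.62 and 9.38 in Cdh2-cKO-labelled TdT- libraries, all CD45-, and at 3.8, 5.85 and 10.4 CPM in CD45+ libraries (log2 fold change 0.85, SE 0.20, adjusted p = 0.00128, edgeR). In the 11 Cdh2-cKO-labelled libraries alone it did not pass (adjusted p = 0.107). Fzd4 ranged over 0.485 to 4 CPM in CD45- and 0.594 to 2.68 CPM in CD45+ libraries and Fzd5 over 1.23 to 3.06 CPM and 0.879 to 4.81 CPM, with at least 3 counts in all 22 libraries for both, and neither passed the test (edgeR adjusted p = 0.091 and 0.636). Fzd4 and Lrp6 passed without wild type TdT- CD45- replicate 3 (edgeR adjusted p = 0.0432 and 0.0278).

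The secreted antagonists had a median log2 fold change of 7.41 between the gates over the 7 tested, against 4.38 over the 9 ligands and 2.09 over the 10 receptors (7.25, 3.52 and 2.09 with the genes that had a group at 0 set to the same ratio). These medians cover only members that passed the filter, 7 of 9 antagonists, 9 of 17 ligands and 10 of 12 receptors. For genes near 3 counts in CD45+ libraries the fold change is limited by the CD45- level, so the medians do not rank the roles. Dkk3, the divergent member of the Dickkopf family, was at 805.5 and 492 CPM in wild type TdT+, 314 and 343 in Cdh2-cKO-labelled TdT+, 306, 159 and 57.4 in wild type TdT- and 139, 151 and 389 in Cdh2-cKO-labelled TdT- libraries, all CD45-. In CD45+ libraries it was at 0.541, 1.56 and 3.13 CPM (lowest, median and highest), so that the lowest CD45- library was 18.3 times above the highest CD45+ one (log2 fold change 7.58, SE 0.36, adjusted p = 5.62e-11, edgeR). Sfrp4, a Frizzled-related protein known from bone and connective tissue, was at 94.8 and 312 CPM in wild type TdT+, 49.5 and 74.5 in Cdh2-cKO-labelled TdT+, 129, 176 and 25.7 in wild type TdT- and 82, 63.4 and 79.4 in Cdh2-cKO-labelled TdT- libraries, all CD45-. Its CD45+ libraries were at 0.108, 0.339 and 1.6 CPM, and the lowest CD45- library was 16.03 times above the highest of them (log2 fold change 7.88, SE 0.43, adjusted p = 1.42e-10, edgeR). The highest library was wild type TdT+ CD45- replicate 1 for Dkk3 and replicate 2 of that group for Sfrp4, and both genes were lowest in wild type TdT- CD45- replicate 3. Sfrp2 was at 210.1 and 129 CPM in wild type TdT+, 47.4 and 41.9 in Cdh2-cKO-labelled TdT+, 110.5, 33.1 and 17 in wild type TdT- and 50.9, 12.3 and 52.8 in Cdh2-cKO-labelled TdT- libraries, all CD45-, and at 0.0594, 0.389 and 1.04 CPM in CD45+ libraries (log2 fold change 7.25, SE 0.43, adjusted p = 3.49e-10, edgeR). Sfrp1 was at 246 and 79.8 CPM in wild type TdT+, 25.9 and 27.5 in Cdh2-cKO-labelled TdT+, 157, 15.5 and 11.6 in wild type TdT- and 18.3, 16.4 and 40.9 in Cdh2-cKO-labelled TdT- libraries, all CD45-, and at 0.0585, 0.228 and 1.32 CPM in CD45+ libraries (log2 fold change 7.42, SE 0.58, adjusted p = 8.26e-09, edgeR). In both the 3 highest libraries were wild type, both of the TdT+ CD45- libraries and TdT- CD45- replicate 1. Of the exonic bases of Sfrp2, 16.1% are shared with another gene.

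Dkk2, an inhibitor of Lrp5 and Lrp6, was at 11.3 and 34.9 CPM in wild type TdT+, 8.64 and 34.5 in Cdh2-cKO-labelled TdT+, 10.6, 15.9 and 5.62 in wild type TdT- and 19.5, 25.1 and 17.1 in Cdh2-cKO-labelled TdT- libraries, all CD45-, and at 0.409, 0.595 and 1.81 CPM (lowest, median and highest) in CD45+ libraries, without overlap (log2 fold change 4.61, SE 0.34, adjusted p = 4.22e-09, edgeR). Frzb, also called Sfrp3, was at 5.77 and 6.35 CPM in wild type TdT+, 5.72 and 5.15 in Cdh2-cKO-labelled TdT+, 2.48, 0.665 and 0.936 in wild type TdT- and 2.42, 0.776 and 4.63 in Cdh2-cKO-labelled TdT- libraries, all CD45-, and at 0, 0.0584 and 0.276 CPM in CD45+ libraries, again without overlap (log2 fold change 5.19, SE 0.54, adjusted p = 2.87e-07, edgeR). Wif1 was at 0 and 24.3 CPM in wild type TdT+, 0.446 and 0.41 in Cdh2-cKO-labelled TdT+, 0.276, 2.92 and 0.22 in wild type TdT- and 0.421, 0.485 and 1.79 in Cdh2-cKO-labelled TdT- libraries, all CD45-, and had 1 count over all 12 CD45+ libraries. Most of it was in a single library, wild type TdT+ CD45- replicate 2 with 627 of 778 counts (edgeR adjusted p = 3.97e-04 over all 22 libraries). Without that library, a fit that left its group with 1 library at 0 counts, the call was lost. Rspo3, the only R-spondin tested, ranged over 0.0485 to 7.4 CPM in CD45- and 0 to 0.229 CPM in CD45+ libraries, with 516 and 7 counts and at least 3 counts in 9 of 10 and 1 of 12 libraries (edgeR adjusted p = 7.50e-06).

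The targets were higher on the same side. Axin2 was at 11.6 and 6.32 CPM in wild type TdT+, 3.29 and 4.51 in Cdh2-cKO-labelled TdT+, 8.41, 4.86 and 1.6 in wild type TdT- and 4.47, 2.13 and 5.83 in Cdh2-cKO-labelled TdT- libraries, all CD45-, and at 0.0594, 0.255 and 5.79 CPM (lowest, median and highest) in CD45+ libraries. The highest CD45+ value was that of the lymphocyte-rich wild type TdT- CD45+ replicate 2, and the next was 1.32 CPM. Axin2 passed in all 22 libraries (log2 fold change 3.32, SE 0.57, adjusted p = 7.01e-05, edgeR) but not in the 11 wild type ones (adjusted p = 0.0561). Lgr5 was at 31.9 and 23.8 CPM in wild type TdT+, 3.32 and 7.02 in Cdh2-cKO-labelled TdT+, 17.7, 4.4 and 1.65 in wild type TdT- and 2.52, 2.13 and 6.46 in Cdh2-cKO-labelled TdT- libraries, all CD45-, and at 0, 0.11 and 0.63 CPM in CD45+ libraries, without overlap (log2 fold change 5.62, SE 0.51, adjusted p = 6.23e-08, edgeR).

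Levels of different genes can be set side by side only per length, as RPKM, the CPM per kilobase of exon. Over the CD45- libraries the median level was highest for Dkk3 (92.4 RPKM), followed by Sfrp4 (46.0), Wnt5a (40.1), Sfrp2 (22.8), Wnt2 (13.4), Fzd1 (8.29) and Sfrp1 (6.11). Antagonists and ligands were thus at the head of this order, and the receptors after Fzd1 were lower, with Fzd2 at 3.72, Lrp6 at 3.47, Fzd6 at 2.41 and Fzd7 at 2.17 RPKM. The ranges of neighbours overlapped widely, as between Dkk3 (17.1 to 240.0 RPKM) and Sfrp4 (14.6 to 178.0 RPKM). Over the CD45+ libraries the order was headed by receptors, Lrp6 at a median of 3.44 and Fzd7 at 1.29 RPKM, and the next 3 were Dkk3, Wnt5a and Fzd1 at 0.464, 0.45 and 0.389 RPKM.

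Of 51 further genes of the pathway, 43 were tested, and 31 of them were higher and 3 lower in CD45- cells, where 31.1% of all genes were higher and 32.6% lower. Both genes of Wnt secretion were higher (Wls, the carrier that brings Wnt proteins to the surface, log2 fold change 1.87, SE 0.13, edgeR adjusted p = 2.93e-09, and Porcn, the enzyme that adds the lipid, 1.47, SE 0.27, adjusted p = 1.58e-04). Of 12 other receptors and surface regulators tested, 10 were higher and 1 lower, by adjusted p led by Gpc3, a glypican (6.99, SE 0.32), Ptk7 (5.81, SE 0.34) and Lgr4, an R-spondin receptor (3.01, SE 0.19). The one that was lower was Rnf43 (-2.25, SE 0.79, edgeR adjusted p = 0.0191), a ligase that removes Frizzled from the surface. Of its 175 counts in CD45+ libraries, 100 lay in the lymphocyte-rich wild type TdT- CD45+ replicate 2 (5.73 CPM, where the CD45+ median was 0.244 CPM). The intracellular core moved less, with 5 of 10 genes higher and 0 lower and a median log2 fold change of 0.40, among them Dvl1 (1.24, SE 0.15) and Ctnnb1, the gene of β-catenin (0.65, SE 0.10). Of the 4 TCF/LEF genes Tcf7l1 was higher (4.64, SE 0.43) and Tcf7l2 lower (-0.62, SE 0.16). Of 10 feedback and target genes 9 were higher, by adjusted p led by Nkd2 (7.22, SE 0.38), Apcdd1 (4.71, SE 0.31) and Dact1 (5.98, SE 0.44), and among other secreted modulators 4 of 5 were higher, among them Cpz (6.84, SE 0.57), and Dkkl1, with a group at 0 counts, was lower.

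The next comparison asks whether the Wnt genes differ between the Osx-cre lineage and the rest of the non-immune stroma. Between TdT+ and TdT- cells within CD45-, 0 of the 29 members passed edgeR's test, where 1.89% of all genes passed, 1.23% as higher and 0.659% as lower. The log2 fold change was above 0 for 25 of 29, with a median of 0.59 against 0.07 over all genes (21 of 29 without both wild type libraries that stood apart, TdT- CD45- replicate 3 and TdT- CD45+ replicate 2). Of the 29 members, 5 had an unadjusted p under 0.05: Dkk3 (1.22, SE 0.41, adjusted p = 0.119), Frzb (1.60, SE 0.62), Wnt2b (1.60, SE 0.67), Fzd1 (1.02, SE 0.45) and Wnt5a (0.72, SE 0.33). DESeq2 called 0 members and limma's voomWithQualityWeights called 4, all higher in TdT+ cells: Dkk3, Frzb, Lgr5 and Wnt2b (adjusted p = 0.0252, 0.0256, 0.0325 and 0.0497). The share of all genes called by limma is not given here, so these 4 cannot be set against it.
Cell type markers differed along with these values. In the wild type the fibroblast genes summed to 58910 and 31720 CPM in TdT+ against 31920, 9497 and 4223 CPM in TdT- libraries, and 5 pericyte genes (Rgs5, Cspg4, Pdgfrb, Notch3 and Mcam) to 2207 and 1522 against 929, 504 and 156 CPM, where the fibroblast sums overlapped and the pericyte sums did not. In the Cdh2-cKO-labelled libraries the fibroblast sums were 13510 and 28070 against 9146, 8808 and 14230 CPM and the pericyte sums 508.5 and 899.6 against 319, 421 and 778.5 CPM, which overlap. The part of these cell types in the values of the members was not tested.
For Dkk3 the wild type TdT+ libraries (806 and 492 CPM) were above all 3 TdT- libraries (306, 159 and 57.4 CPM). In the Cdh2-cKO-labelled libraries the TdT+ values (314 and 343 CPM) lay within the TdT- range (139 to 389 CPM). Frzb was the only member whose TdT+ libraries lay above the TdT- ones in both genotypes, at 5.77 and 6.35 against 0.665 to 2.48 CPM in the wild type and at 5.72 and 5.15 against 0.776 to 4.63 CPM in the other. How many of all genes did so in both genotypes is not given here, so Frzb cannot be set against that share. In the wild type 8 members had both TdT+ above all TdT- libraries (Wnt5a, Fzd3, Fzd7, Sfrp2, Frzb, Dkk3, Rspo3 and Lgr5) and 0 were below, as did 16.1% and 12.4% of all genes. In the Cdh2-cKO-labelled libraries 2 were above (Wnt2b and Frzb) and 3 below (Fzd6, Lrp5 and Lrp6), as were 21.7% and 13.7% of all genes.
Without wild type TdT- CD45- replicate 1, a library high in the fibroblast genes (31920 CPM), edgeR called Fzd1, Dkk3 and Sfrp1 higher in TdT+ cells (adjusted p = 0.0312, 0.0403 and 0.0445). For that fit too, the share of all genes called is not given here. Of the 43 other pathway genes tested, 0 passed in this comparison.

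Within CD45+ cells, where 11 of the 29 members had at least 3 counts in every library, 0 passed between TdT+ and TdT- cells with edgeR, limma or DESeq2, as against 0.00666% of all genes with edgeR. Here 2 members had an unadjusted p under 0.05 with edgeR, Wnt5a (-0.70, SE 0.32) and Sfrp4 (-1.38, SE 0.62), both lower in TdT+ cells. Wnt5a was at 2.14, 1.404 and 2.27 CPM in wild type TdT+ CD45+ against 1.62, 5.21 and 1.99 CPM in wild type TdT- CD45+ libraries, and at 4.08, 2.96 and 4.75 against 5.71, 9.70 and 4.997 CPM in the Cdh2-cKO-labelled ones. The groups overlapped in the wild type and did not in the Cdh2-cKO-labelled libraries. The 6 fibroblast genes summed to 59.9, 91.5 and 69.1 CPM in wild type TdT+ CD45+ against 93.8, 167.6 and 72.0 CPM in TdT- CD45+ libraries. In the Cdh2-cKO-labelled ones they summed to 86.9, 91.5 and 110.9 against 213, 108.5 and 137 CPM, and both sets overlapped. The part of such cells in the values of the members was not tested. In the wild type 1 member had every TdT+ CD45+ library above every TdT- CD45+ library (Wnt9a) and 2 had them below (Wnt2 and Fzd7), as did 1.71% and 2.83% of all genes. In the Cdh2-cKO-labelled libraries 0 were above and 4 below (Wnt4, Wnt5a, Sfrp4 and Dkk3), as were 9.12% and 8.89% of all genes. Lrp6 and Fzd7, the receptors with the highest RPKM in these cells, had log2 fold changes of -0.07, SE 0.16 and -0.26, SE 0.27 and did not pass.

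**Figure D3:**
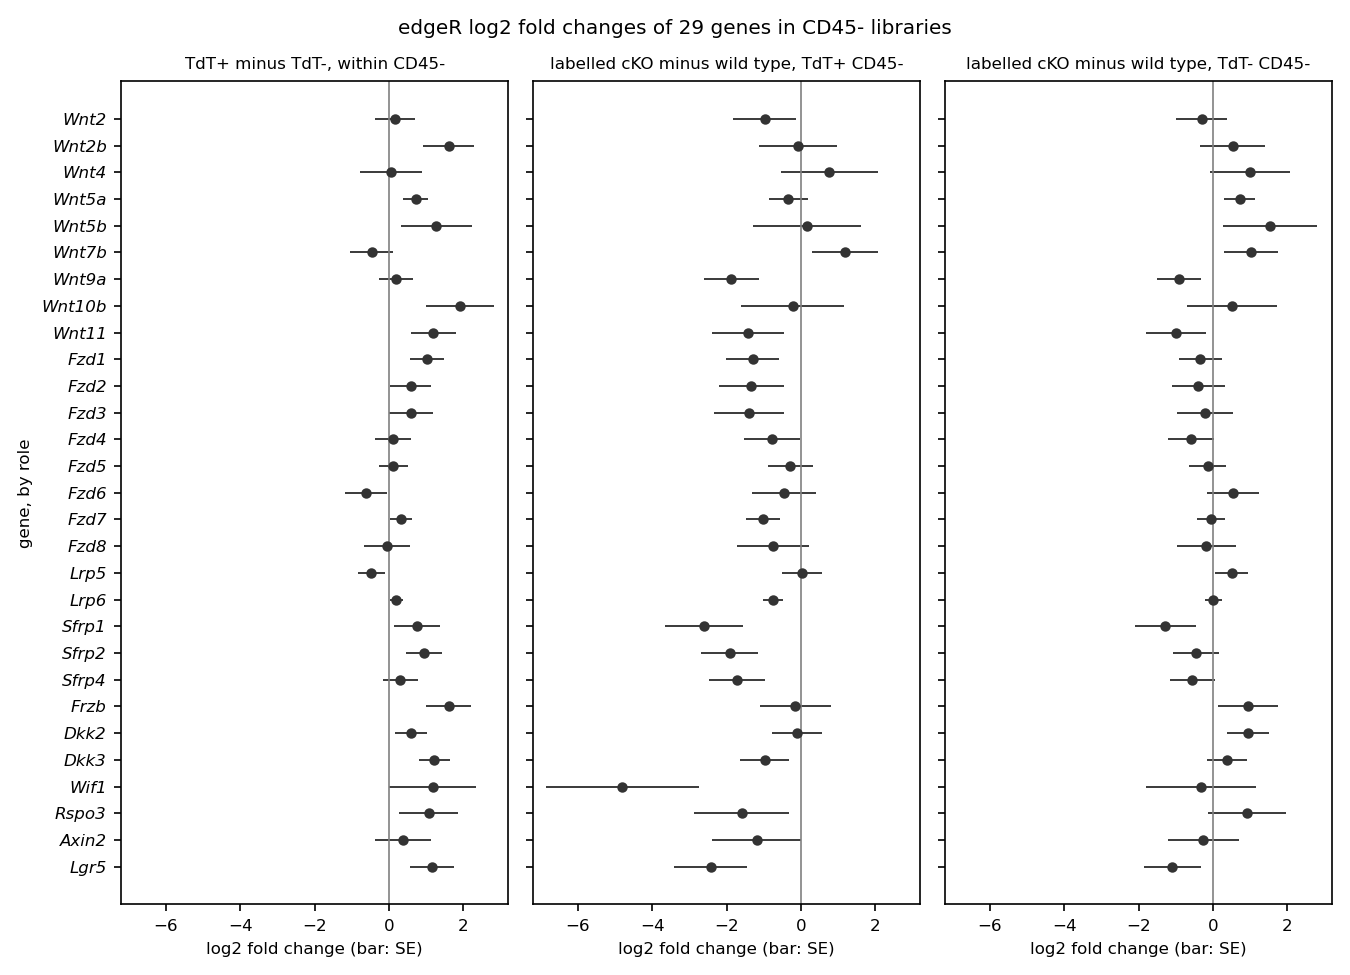
edgeR log2 fold changes of the 29 tested genes (points) with their SE (bars) for TdT+ against TdT- within CD45- cells and for Cdh2-cKO-labelled against wild type libraries in TdT+ CD45- and in TdT- CD45- cells. Most points lie right of 0 in the first panel (25 of 29) and left of 0 in the second (25 of 29), none passed the test after adjustment, and Wif1 in the second panel (-4.81) rests on 1 wild type library.

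The genotypes were compared within each population, to ask whether the Wnt genes differ in tumors of mice labelled with loss of Cdh2 in the Osx-cre lineage. In TdT+ CD45- cells 0 of 29 members passed with edgeR, limma or DESeq2, where 0.00666% of all genes passed with edgeR. The log2 fold change was below 0 for 25 of the 29, with a median of -0.98 against -0.0027 over all genes, and 8 members, all lower in the Cdh2-cKO-labelled libraries, had an unadjusted p under 0.05 with edgeR. These were Lrp6 (-0.75, SE 0.27), Wnt9a (-1.88, SE 0.73), Sfrp1 (-2.61, SE 1.04), Lgr5 (-2.43, SE 0.97), Sfrp2 (-1.92, SE 0.78), Sfrp4 (-1.71, SE 0.75), Wif1 (-4.81, SE 2.06) and Fzd7 (-1.03, SE 0.47), with adjusted p between 0.384 and 0.46. The share of all genes at this unadjusted threshold is not given here, so the 8 cannot be set against it. Leaving out each library in turn gave 0 calls each time.
The values show the size of these differences. Sfrp1 was at 246 and 79.9 CPM in wild type and 25.9 and 27.5 CPM in Cdh2-cKO-labelled TdT+ CD45- libraries, and Sfrp2 at 210.1 and 129 against 47.4 and 41.9 CPM. Lgr5 was at 31.9 and 23.8 against 3.32 and 7.02 CPM, and Wnt9a at 32.7 and 16.9 against 6.58 and 6.93 CPM. In each of these 4 both wild type libraries were above both of the others. In all, 14 members had both Cdh2-cKO-labelled libraries below both wild type libraries (Wnt2, Wnt9a, Fzd3, Fzd4, Fzd7, Lrp6, Sfrp1, Sfrp2, Sfrp4, Frzb, Dkk3, Rspo3, Axin2 and Lgr5), as in 20.7% of all genes, and 1 had them above, Wnt7b, as in 21.5% of all genes. Wnt7b was at 2.14 and 14.2 CPM in wild type and 19.8 and 17.6 CPM in Cdh2-cKO-labelled libraries (1.19, SE 0.89).

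Markers of cell types moved with these values. In TdT+ CD45- cells the fibroblast genes summed to 58910 and 31720 CPM in the wild type and to 13510 and 28070 CPM in the Cdh2-cKO-labelled libraries, the pericyte genes to 2207 and 1522 against 508.5 and 899.6 CPM, and the leukocyte genes to 206.8 and 1503 against 3543 and 1660 CPM. The luminal keratins Krt8 and Krt18 together were at 26.5 and 556 against 875 and 908 CPM, while Epcam, an epithelial surface protein, was at 0 to 2.04 CPM over the CD45- libraries. Among other epithelial genes, Krt19 was at 6.53 and 3.91 against 2.33 and 6.11 CPM, which overlap. Cdh1 was at 0.817 and 6.47 against 56 and 14.3 CPM, and at 85.2 to 366 CPM in the CD45+ libraries. The part of these cell types in the differences was not tested. One of the 2 Cdh2-cKO-labelled libraries is among both CD45- libraries highest in leukocyte genes. Without these, a choice made after seeing the data, the comparison rests on 1 Cdh2-cKO-labelled library against 2 wild type ones, and in it 24 of 29 members were below 0, with a median of -0.71, and 0 passed.

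**Figure D4:**
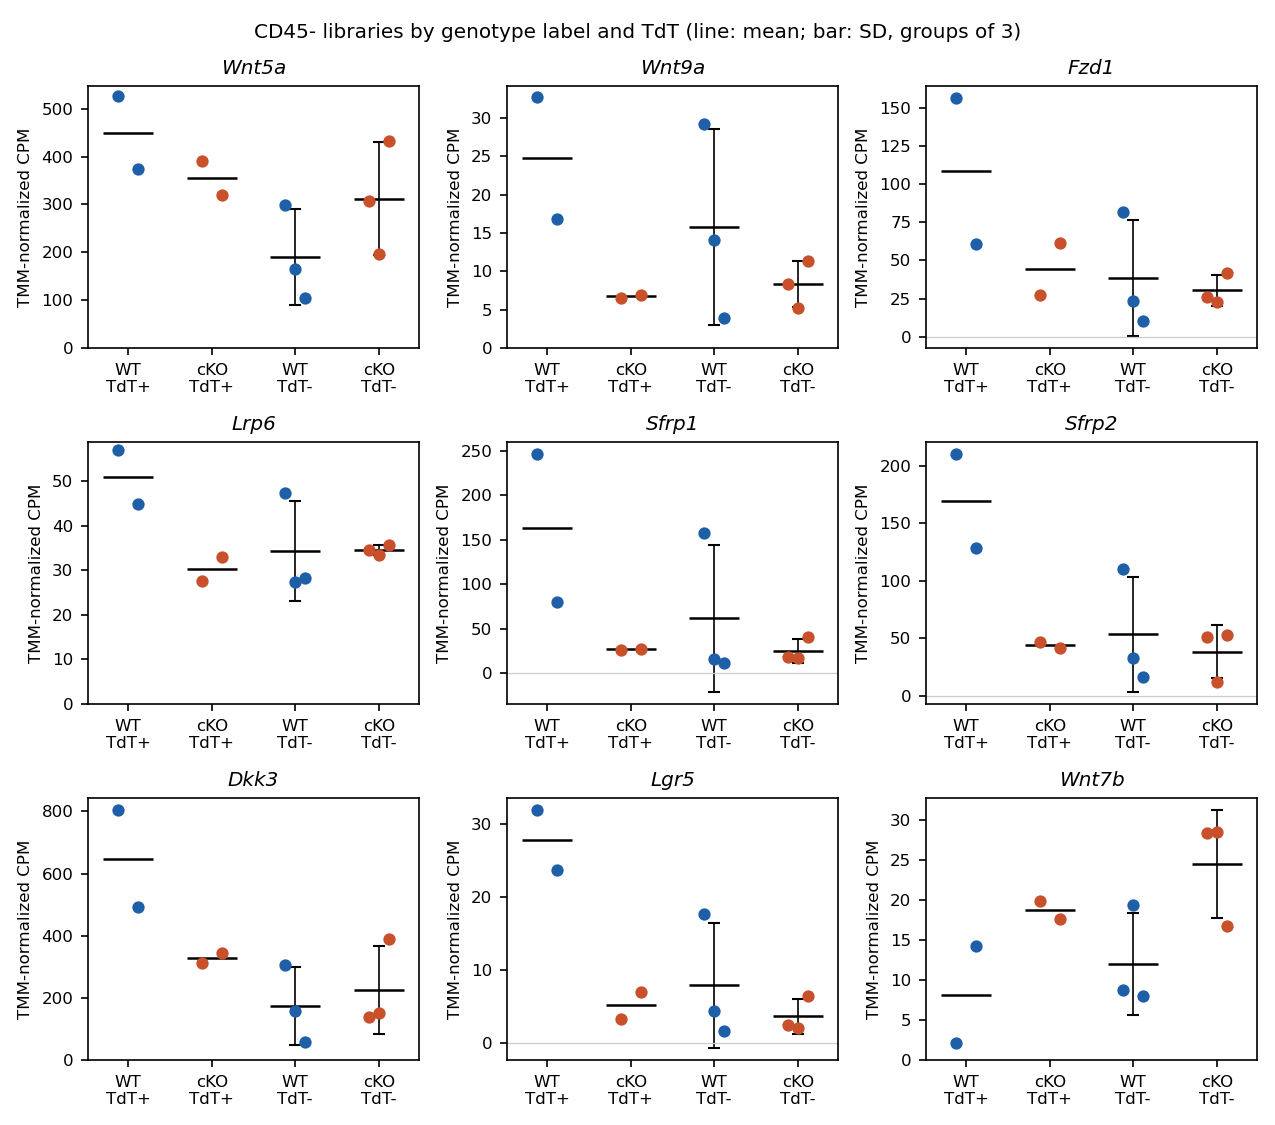
TMM-normalized CPM of 9 genes in the CD45- libraries by genotype label and TdT, 1 point per library, with the group mean as a line and the SD as a bar for groups of 3. Both wild type TdT+ libraries are above both Cdh2-cKO-labelled TdT+ libraries for Wnt9a, Lrp6, Sfrp1, Sfrp2, Dkk3 and Lgr5, below them for Wnt7b, and the TdT- groups overlap for all 9.

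In TdT- CD45- cells 0 of 29 members passed (0% of all genes with edgeR; limma and DESeq2 called 0 members too), and 0 had an unadjusted p under 0.05 with edgeR. Of the 29, 13 were above and 16 below 0, with a median of -0.14. Here 3 members had every Cdh2-cKO-labelled library above every wild type one, as in 3.89% of all genes: Dkk2 (19.5, 25.1 and 17.1 against 10.6, 15.9 and 5.62 CPM), Lrp5 (7.42, 5.77 and 5.71 against 5.24, 4.86 and 3.19 CPM) and Wnt5b (0.841, 0.824 and 1.46 against 0.506, 0.563 and 0 CPM). No member was below in this way, as in 5.33% of all genes.

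In TdT+ CD45+ cells 0 members passed with edgeR, limma or DESeq2 (0% of all genes with edgeR), and 3 had an unadjusted p under 0.05 with edgeR. Wnt5a was at 2.14, 1.404 and 2.27 CPM in wild type and 4.08, 2.96 and 4.75 CPM in Cdh2-cKO-labelled libraries, without overlap (1.01, SE 0.46). Lrp5 was at 1.43, 1.404 and 1.58 against 1.71, 4.803 and 2.59 CPM (1.04, SE 0.46), and the third was Wnt2, which had 0 counts in all 3 wild type libraries and at most 0.582 CPM in the others. In all, 4 members had every Cdh2-cKO-labelled TdT+ CD45+ library above every wild type one (Wnt2, Wnt5a, Lrp5 and Dkk3, as 6.75% of all genes) and 2 below (Wnt4 and Lgr5, as 6.05%). In TdT- CD45+ cells, where the libraries of all 29 members overlapped (4.16% of all genes were above and 5.9% below), 0 passed with edgeR (0% of all genes) and with limma, and 2 had an unadjusted p under 0.05, Wnt5a (1.21, SE 0.45) and Axin2 (-3.21, SE 1.16). Axin2 there was at 0.241, 5.79 and 0.269 CPM in wild type and 0.384, 0.134 and 0.128 CPM in Cdh2-cKO-labelled libraries, and the single high value was that of the lymphocyte-rich replicate 2. DESeq2 called 1 member lower, Wif1, whose counts in these 6 libraries were 1 in a wild type library and 0 in the others. The fibroblast genes summed to 59.9, 91.5 and 69.1 CPM in wild type and 86.9, 91.5 and 110.9 CPM in Cdh2-cKO-labelled TdT+ CD45+ libraries. In TdT- CD45+ libraries the sums were 93.8, 167.6 and 72.0 against 213, 108.5 and 137 CPM. The part of such cells in these differences was not tested.

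Averaged over the 4 populations, 0 members passed with edgeR (0% of all genes) or limma and 4 had an unadjusted p under 0.05: Lgr5 (-1.59, SE 0.51), Wnt5a (0.65, SE 0.23), Axin2 (-1.49, SE 0.56) and Wnt7b (1.001, SE 0.40). DESeq2 again called Wif1 lower (adjusted p = 0.0375).
The difference of the CD45 effect between the genotypes passed for 0 members (0% of all genes), with 3 at an unadjusted p under 0.05 (Wnt2, Wnt9a and Sfrp2), and that of the TdT effect within CD45- for 0 members (0.00666% of all genes), with 1 at an unadjusted p under 0.05, Lrp6 (-0.76, SE 0.35). limma and DESeq2 called 0 members in both. The difference of the TdT effect was below 0 for 28 of 29 members, with a median of -0.96 against 0.02 over all genes, and this contrast shares its 4 TdT+ CD45- libraries with the comparison of the genotypes above. Without both libraries that stood apart, wild type TdT- CD45+ replicate 2 and TdT- CD45- replicate 3, it was below 0 for 26 of 29. Of the 43 other pathway genes tested, 0 passed in any comparison of the genotypes with edgeR.

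Among the 10 CD45- libraries the members had their extremes in few places, and where all genes tested had theirs is not given here. Of the 29 tested, 16 were highest in wild type TdT+ CD45- replicate 1 and 8 in replicate 2 of that group, and 13 were lowest in wild type TdT- CD45- replicate 3. The first of these libraries had the highest fibroblast sum (58910 CPM) and the last the lowest (4223 CPM) and the highest leukocyte sum. Fzd1 ranged from 10.02 CPM in the library with the lowest fibroblast sum to 156 CPM in that with the highest, and Sfrp1 from 11.6 to 246 and Lgr5 from 1.65 to 31.9 CPM.
Wnt7b and Fzd6 went another way. Both were lowest in wild type TdT+ CD45- replicate 1 (2.14 and 5.10 CPM), the library with the least Krt8 and Krt18 (26.5 CPM together, against 472.1 to 1983 CPM in the other 9), and highest in Cdh2-cKO-labelled TdT- CD45- libraries (1054 to 1983 CPM of the keratins). In the library with the most Krt8 and Krt18, Fzd6 was at 11.2 CPM. Of other epithelial genes, Cdh1 was also lowest in wild type TdT+ CD45- replicate 1 (0.817 CPM). Krt19 was not, at 6.53 CPM there and 2.33 to 14.5 CPM over the CD45- libraries. Cdh1 did not follow the keratins elsewhere. It was at 2.81 CPM in the library with the most Krt8 and Krt18. Its highest CD45- value, 117 CPM, was in wild type TdT- CD45- replicate 3, which had the highest leukocyte sum, and the CD45+ libraries had 85.2 to 366 CPM. Fzd5 ranged over 1.23 to 3.06 CPM in the CD45- libraries and had its highest values, 3.06 and 2.92 CPM, in libraries of very different fibroblast sums, 31720 and 4223 CPM. These are descriptions over 10 libraries that may share mice, and the part of cell composition in them was not tested.

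**Figure D5:**
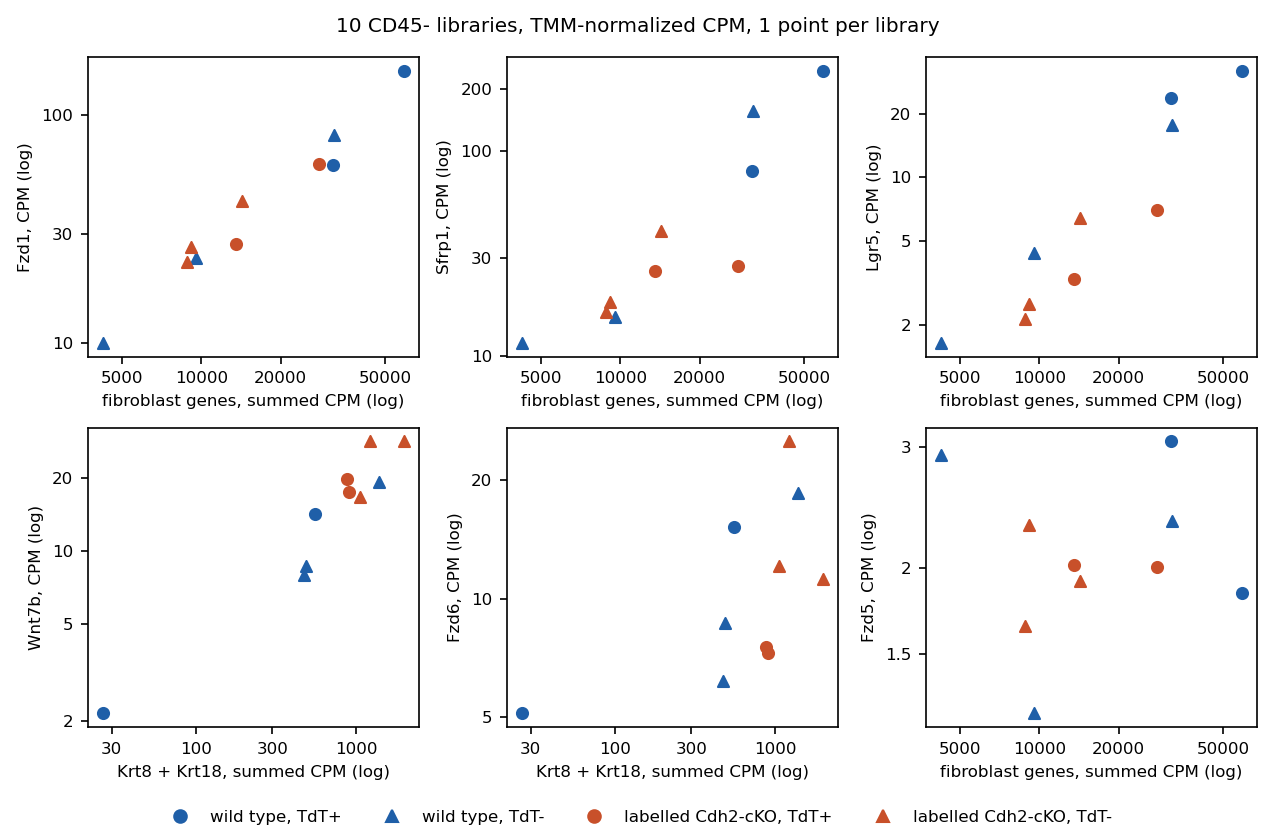
Levels of Fzd1, Sfrp1, Lgr5 and Fzd5 against the summed level of 6 fibroblast genes and of Wnt7b and Fzd6 against Krt8 plus Krt18, in TMM-normalized CPM on log axes, 1 point for each of the 10 CD45- libraries, with colour for the genotype label and shape for TdT. Fzd1, Sfrp1 and Lgr5 are lowest at 4223 and highest at 58910 CPM of the fibroblast genes, and Wnt7b is lowest at 26.5 CPM of the keratins.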

How the data were processed

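RNA of 22 sorted libraries (2 or 3 per population and genotype) had been sequenced by the authors from SMARTer cDNA on an Illumina HiSeq, aligned with STAR 2.0.4b to GRCm38 and assigned to Ensembl genes with featureCounts, unique and unambiguous reads only. The deposited counts are raw reads per gene. The deposited CPM are counts scaled to each library's total, and the deposited RPKM divide these by exonic length, both made by the authors. Recomputed from the counts, they deviated by at most 5.1e-15 and 5.1e-14 in relative terms. Groups and replicate numbers came from the labels.

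Analysis was in R 4.3.3. After removal of 355 rRNA genes, a gene was kept when 2 or more libraries exceeded 1 CPM, which gave 15018. TMM factors and a quasi-likelihood fit of 8 group means came from edgeR 4.0.16, and p-values were adjusted over all genes tested (Benjamini-Hochberg, called at 0.05 or below). Because the labels do not tie libraries to mice, p-values measure the spread between libraries. Standard errors were derived from the test. Counts of members with an unadjusted p under 0.05 stand without the share of all genes at that threshold and describe the members only. limma 3.58.1 (voomWithQualityWeights, the tool of the study's methods, which tested other contrasts) and DESeq2 1.42.0 were alternatives, with RLE factors, no filter, the replicate number as a block, and left-out libraries. The fit was tested on simulated data. Values in every CD45- library are given for the 21 members with a mean of at least 5 CPM in a group, with the lowest, median and highest CD45+ value, and the others are given by range. At most 3 genes by adjusted p are named from each other pathway list, and Rnf43 and Dkkl1 were added after their values were seen. Windows of promoters were read from RefSeq (GRCm38.p6). The members and lists were chosen with earlier results of these data known.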

Additional observations from a re-analysis of the deposited data

Results flagged for a closer look

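Dkk3 differed between the genotypes in opposite directions in the TdT+ populations. In TdT+ CD45- cells both Cdh2-cKO-labelled libraries (314 and 343 CPM) were below both wild type libraries (806 and 492 CPM), with a log2 fold change of -0.98. In TdT+ CD45+ cells all 3 Cdh2-cKO-labelled libraries (1.49, 1.70 and 1.62 CPM) were above all 3 wild type libraries (0.713, 1.35 and 1.37 CPM), with a log2 fold change of 0.48. Neither passed edgeR's test (adjusted p = 0.613 and 1), and the difference between these populations was not tested. The TdT+ CD45+ values of Dkk3 rest on 12 to 35 counts per library. Wnt2 also had its Cdh2-cKO-labelled libraries below the wild type ones in TdT+ CD45- and above them in TdT+ CD45+ cells. It was not flagged, because its mean in TdT+ CD45+ cells was under 1 CPM (0 CPM in wild type and 0.326 CPM in Cdh2-cKO-labelled libraries). How many of all genes had such opposite directions is not given here. In these TdT+ CD45+ libraries the 6 fibroblast genes summed to 59.9, 91.5 and 69.1 CPM in the wild type and 86.9, 91.5 and 110.9 CPM in the Cdh2-cKO-labelled ones. The part of such cells in the Dkk3 values was not tested. The test for single outlying libraries needs groups of 4 or more and could not be run on groups of 2 or 3.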

How the results depend on the processing

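With single libraries left out, the count of 26 members higher in CD45- cells rose to at most 28. Wnt10b and Wif1 lost their calls without wild type TdT+ CD45- replicate 2, which left its group with 1 library, at 0 counts for both. All 26 kept direction without both CD45- libraries highest in leukocyte genes (chosen after seeing the data), a fit with 1 library in a group. The count was 26 with limma, RLE factors, the replicate block and DESeq2, where Lrp6 was called (adjusted p = 0.0496) and Sfrp1 had no adjusted p. It was 27 without both libraries that stood apart. Without the filter it was 28 higher and 1 lower (Wnt6, with 59 counts in CD45+ and 3 in CD45- libraries). In one genotype alone it was 21 of 26 tested (wild type) and 23 of 27 (Cdh2-cKO-labelled). For the alternatives in this section the share of all genes called is not given here. Their counts show only whether the calls of the members held. TdT+ against TdT- within CD45- gave 4 with limma and 0 to 3 with single libraries left out, 3 without wild type TdT- CD45- replicate 1. DESeq2 called 1 member between the genotypes in TdT- CD45+ cells and 1 in the mean of populations, both times Wif1, a gene at 0 in most CD45+ libraries. The cause was not tested for the others. The remaining comparisons gave 0 under every alternative, and each library left out gave 0 in all of them. Over the 26 called members and the alternatives that gave a value, 795 values kept direction and call, 5 kept direction only and 0 reversed. For Wnt4, Wnt5b, Wnt10b, Fzd8, Sfrp1 and Wif1 1 of 31 alternatives gave none. RLE factors moved the median of all genes by at most 0.08 on the log2 scale.

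Of 30 pairs of libraries with the same genotype and replicate number, 10 had deviations correlated above 0.1 (median r = 0.05). Of 60 pairs with the same genotype and different numbers, 6 did (median r = -0.02). Whether the numbers pair libraries by mouse was not tested. With the replicate block 26 members were called between the CD45 gates and 0 in every other comparison.

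Precision was limited by groups of 2 or 3 libraries and, in CD45+ cells, by levels near 3 counts.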
